A study of Mus musculus with 3 samples.

Results

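Smooth muscle-like cells were picked out of the single cell table of the developing male mouse urogenital sinus and prostate by the values of 14 genes. A cell was a member when at least 3 of the muscle genes *Actg2*, *Des*, *Myl9*, *Tpm2*, *Lmod1* and *Tnnt2* were above 0, when the mean of these 6 exceeded the mean of the stromal genes *Col1a2*, *Col3a1*, *Dcn*, *Lum* and *Pdgfra*, and when *Cdh1*, *Cldn4* and *Rgs5*, which mark epithelium and pericytes, were all 0. Of 14476 cells with at least 200 genes, 3344 were members.

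Smooth muscle forms the sheath around prostatic ducts and lies between the ductal epithelium and the outer fibroblasts. Its thin filaments are built from smooth muscle actins and tropomyosin, its thick filaments are switched on by phosphorylation of myosin light chains, and calcium enters through voltage-gated channels or leaves the sarcoplasmic reticulum. Striated muscle instead regulates its thin filaments with troponins and is specified by the myogenic factors *Myod1*, *Myf5* and *Myog*. Many muscle genes are controlled by serum response factor, which binds a short DNA element called the CArG box.

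The study compared 3 tissues of mice, the E18.5 male urogenital sinus, the P14 prostate and the P35 prostate, each as 1 library. GEO's labels give no strain, genotype or treatment for them, and no key that ties the barcode endings 1, 2 and 3 of the table to an age. The 3 barcode sets are therefore described side by side and not as ages. With 1 library in each set no test between or within sets was possible, and all intervals are 95% intervals that cover counting error only.

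Members made up 28 of 766 cells in set 1 (3.66%, exact binomial interval 2.44 to 5.24%), 1498 of 5350 cells in set 2 (28.0%, 26.8 to 29.2%) and 1818 of 8360 cells in set 3 (21.7%, 20.9 to 22.6%). Dissociation and the filters of the study can set such shares. A member of set 1 had a median of 25318 unique molecular identifiers (UMIs, the tags that count single RNA molecules), against 1584 in set 2 and 1659 in set 3, so an absent gene means less in the shallow sets. Just 1 cell barcode was shared by sets 1 and 2, 13 by sets 2 and 3 and 0 by sets 1 and 3. In set 2, 110 members had exactly 3 of the 6 muscle genes, 582 had 4, 600 had 5 and 206 had all 6, and in set 3 these numbers were 295, 742, 615 and 166. Near the threshold, 26 members of set 2 exceeded the stromal mean by up to 0.1 on the log scale of the deposited values and 36 cells missed it by less than that, with 21 and 17 such cells in set 3 and 4 and 6 in set 1. A further 29 cells of set 2, 100 of set 3 and 10 of set 1 had only 2 muscle genes but passed every other step.

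The CArG box stood in the promoter of 1 of the 5 muscle genes of the rule that matched a RefSeq promoter window, the myosin light chain gene *Myl9*. Windows reach from 250 bases before a start site to 50 after it (RefSeq, GRCm38.p6). Of the contractile genes outside the rule it stood before *Myl6*, *Fhl1* and *Cnn2*, 3 of 15 genes with a window, and of the striated muscle genes before *Actc1*, 1 of 13. Among all 27025 genes with a window, 488 held the box (1.81%). The sites are shown for those muscle genes, of the rule and of both lists, whose window held the box. The capitals mark the CArG box, found on both strands since it reads as a CArG box either way, and each stretch lies wholly before the start site.
Myl9, chr2:156775293-156775322, plus strand: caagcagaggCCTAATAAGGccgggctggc
Myl6, chr10:128493040-128493069, minus strand: gctcttacttCCTTATATGGgcaggaccta
Fhl1, chrX:56779571-56779600, plus strand: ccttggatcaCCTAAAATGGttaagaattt
Cnn2, chr10:79988534-79988563, plus strand: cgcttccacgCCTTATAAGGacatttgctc
Actc1, chr2:114052903-114052932, minus strand: gctaaggcgaCCAAATAAGGcaaggtggca
Where a gene had more than 1 window, a box in any of them counted. The box began 161 bases before the start site of its window in *Myl9*, 50 in *Myl6*, 102 in *Fhl1*, 56 in *Cnn2* and 47 in *Actc1*. Of the genes higher than in fibroblast-rule cells in both sets 2 and 3, as compared below, 11 of 242 with a window held the box (4.55%), against 78 of the 4472 tested in both (1.74%) and 2 of the 253 lower in both (0.791%). The 11 were *Dmd*, *Fhl1*, *Glrx2*, *Hopx*, *Lamtor4*, *Lef1*, *Lmcd1*, *Myl6*, *Prkab2*, *Scp2* and *Trnp1*. A match describes the letters of the window and not binding.

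The muscle genes of the rule chose the members, so their levels are a description. Levels are given as CPM: all UMIs that a gene had in a class of cells, scaled to 1000000 UMIs of that class, with an exact Poisson interval where one is shown. *Acta2* and *Myh11*, which also define smooth muscle, have no row in the table as used here. The smooth muscle actin *Actg2* had 1091 CPM (1016 to 1170.1) in members of set 1, 3609.5 CPM in set 2 and 2102 CPM in set 3. It was found in 19 of 28, 1362 of 1498 and 1470 of 1818 members. In fibroblast-rule cells, chosen by at least 3 of the 5 stromal genes, a stromal mean above the muscle mean and no *Cdh1*, *Cldn4* or *Rgs5*, *Actg2* had 115, 239 and 60.9 CPM. Epithelium-rule cells, chosen by *Cldn4* and at least 2 further epithelial genes, should lack *Actg2* and had 17.9, 249 and 50.6 CPM, so a level of that size in sets 2 and 3 is not read as expression. *Actg2* UMIs were in 279 of 1057 epithelium-rule cells of set 2 (26.4%, median 5593 UMIs a cell) and in 250 of 1527 fibroblast-rule cells (16.4%, median 1347 UMIs a cell). *Lmod1*, which encodes an actin nucleator of smooth muscle, was found in 471 members of set 2 (31.4%) and 496 of set 3 (27.3%), against 3.34% and 1.49% of fibroblast-rule cells and 8.04% and 4.59% of epithelium-rule cells. *Tnnt2*, the cardiac troponin T, was found in 642 members of set 2 (42.9%) and 767 of set 3 (42.2%), and in 18.4% and 12.1% of epithelium-rule cells, whose median was 5593 UMIs a cell in set 2 and 5994.5 in set 3. After thinning every cell to 900 UMIs the *Tnnt2* share was 31.5% of 1447 members of set 2 and 31.6% of 1742 members of set 3 (intervals 29.1 to 34.0% and 29.4 to 33.8%). Stromal genes of the rule were found in members of sets 2 and 3 too. *Col3a1* was in 71.4 and 55.2%, *Col1a2* in 63.8 and 53.7% and *Dcn* in 58.2 and 62.0%. *Lum* was in 18.6 and 18.4% and *Pdgfra* in 4.34 and 1.16%. *Col1a2* was at 1027 and 617 CPM, against 3947 and 3474 CPM in fibroblast-rule and 237 and 54.3 CPM in epithelium-rule cells. *Dcn* was at 988 CPM in members of set 2 and at 987 CPM in its epithelium-rule cells.

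**Figure D1:**
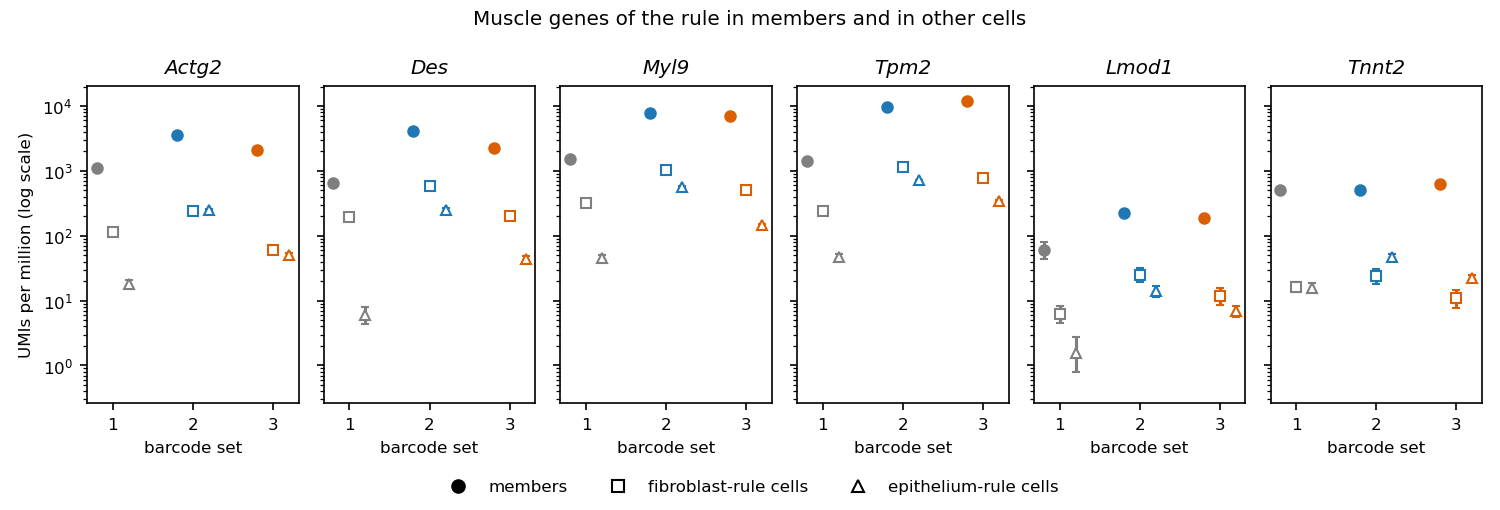
Level of the 6 muscle genes that chose the members, in CPM on a log axis, by barcode set, in members (filled circles), fibroblast-rule cells (open squares) and epithelium-rule cells (open triangles), with exact 95% Poisson intervals. Members lie above both other classes in every panel, and these genes chose them. *Actg2* of set 2 is at 3609.5 CPM in members and at 239 and 249 CPM in the other classes.

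Of the 28 members of set 1, 11 had a UMI of a myogenic factor, genes of glia or over 100 UMIs of a globin. Of these, 8 carried UMIs of *Myod1*, *Myf5* or *Myog*, the factors that specify skeletal muscle. All 8 had *Myod1*, from 2 to 119 UMIs a cell, and all 8 had *Ttn*, the giant sarcomeric protein titin, from 1 to 46 UMIs. *Myog* was in 3 of them with 24, 39 and 293 UMIs. *Actg2* was 0 in 7 of the 8 and 84 UMIs in the other, a cell with 24 *Myod1*, 7 *Myf5* and 56 *Tnnt2* UMIs. These cells had a median total of 37154 UMIs. A further 2 cells had genes of glia and their precursors, among them *Foxd3* with 22 and 2 UMIs and *Fabp7* with 72 and 34, and *Actg2* at 0 and 1 UMI. The remaining cell carried 7578 UMIs of the globin *Hbb-bs* beside 39 of *Actg2*.

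The other 17 members of set 1 were 2.22% of its cells (1.30 to 3.53%). They too were chosen by the muscle genes of the rule, so levels of these genes describe them only. *Actg2* was in 16 of the 17, with up to 119 UMIs in a cell, and *Lmod1* in 9. *Myl9* and *Tpm2* were in all 17, and in 76.2 and 73.5% of fibroblast-rule cells of set 1. *Myod1*, *Myf5*, *Myog*, *Ttn* and *Neb* were 0 in all 17 members, while the cardiac actin *Actc1* was in 8, with 4 to 45 UMIs. Their depth ran from 792 to 51405 UMIs. The shallowest, with 1019, 950 and 792 UMIs, had 1, 1 and 0 UMIs of *Actg2* and none of *Lmod1*. *Actg2* reached 2178 CPM in these 17 cells and *Des* 181 CPM (136.5 to 235.9), against 660.2 CPM of *Des* over all 28. Of the 475 *Des* UMIs in the 28, 407 were in the 8 cells with a myogenic factor. Fibroblast-rule cells of set 1 had *Des* at 195 CPM (185 to 205), so *Des* was not higher in the 17. In sets 2 and 3 no member had a UMI of *Myog* or *Myf5*, and *Myod1* had 1 UMI in set 2 and 0 in set 3, while 17 and 8 members had at least 2 glial genes. The 17 were not free of genes of every other type, since 5 of them and 7 of the 28 had at least 2 epithelial genes, as did 144 of 378 fibroblast-rule cells of set 1. Results of set 1 are therefore given for all 28 members and, where stated, for the 17, a division made after the values were seen.

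**Figure D2:**
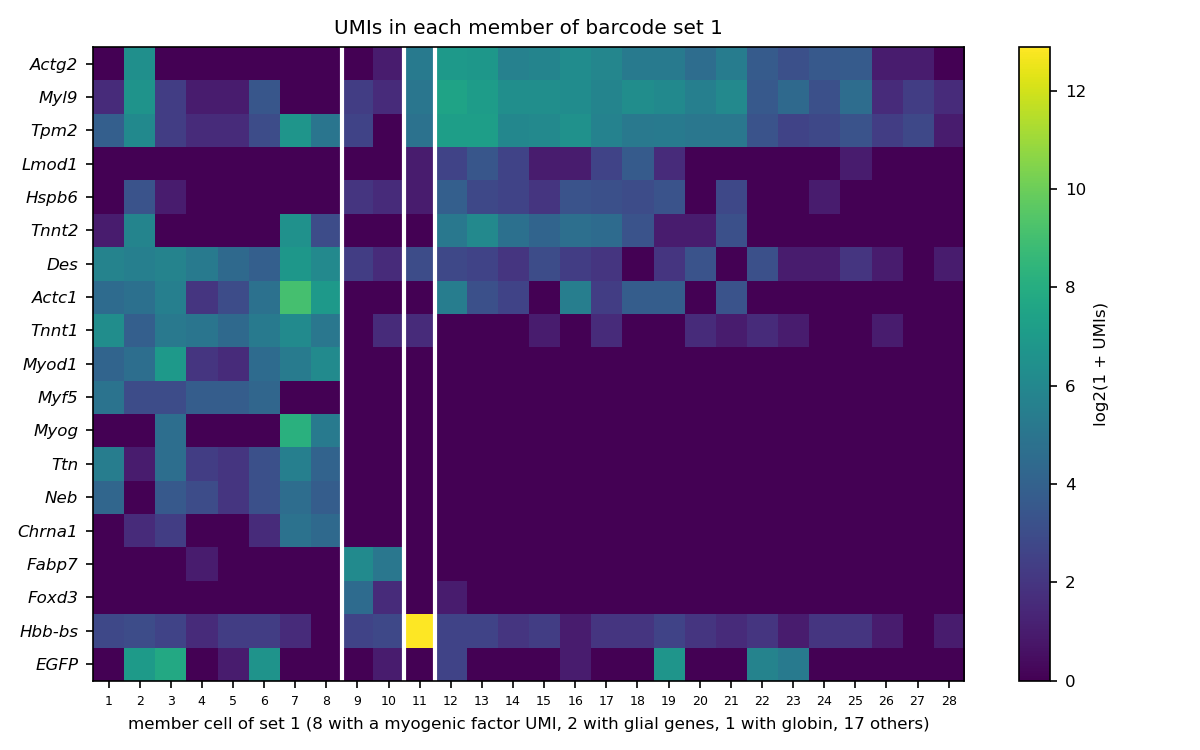
UMIs of 19 genes in each of the 28 members of barcode set 1, as log2(1 + UMIs), with white lines between 8 cells with a myogenic factor UMI, 2 cells with glial genes, 1 cell with globin and 17 other members. *Myl9* and *Tpm2* fill all 17 cells at the right and *Actg2* 16 of them, and *Myod1* and *Ttn* fill the 8 cells at the left.

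Markers of further cell types were summed in members. Leukocyte genes (11 with a row) summed to 0 CPM in set 1, 27.4 CPM in set 2 and 42.7 CPM in set 3, and at least 2 of them were found in 0, 4 and 11 members. Endothelial genes (10 with a row) summed to 22.2, 155 and 88.7 CPM, with 5, 0 and 0 of the genes at 0, and epithelial genes (10 with a row) to 236, 437 and 237 CPM, with 5, 0 and 0 at 0. In set 2 at least 2 epithelial genes were found in 123 of 1498 members and in 110 of 1527 fibroblast-rule cells, where they summed to 422 CPM. Of 6 epithelial genes tested against fibroblast-rule cells as below, *Cldn3* and *Spint2* were higher in set 2 and *Spint2* in set 3. Of all genes tested, 8.99% and 11.3% were higher. In set 1, 0 of 5 were higher and 2 lower, where 5.35% and 18.4% of all genes were. With the 17 cells *Spint2* was higher and *Cd24a* and *Perp* lower, where 6.82% and 14.1% were. Globin genes summed to 12555 CPM over the 28 members of set 1 and to 181 CPM over the 17. Their part in the comparisons was not tested.

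Members were next compared with the fibroblast-rule cells of the same set, gene by gene, outside the 14 genes of the rule. Both classes were chosen by values of these same cells, so every ratio is a description. A gene was tested when both groups together had at least 20 UMIs, and it counted as higher or lower when its rate differed at least 2-fold. In set 1, 352 of 6578 genes were higher (5.35%) and 1210 lower (18.4%). In set 2, 509 of 5661 genes were higher (8.99%) and 501 lower (8.85%), and in set 3, 660 of 5858 genes were higher (11.3%) and 876 lower (15%). The interval of the ratio left out 0 for 273 and 771 genes of set 1, 469 and 451 of set 2 and 618 and 829 of set 3. The same direction in all 3 sets held for 48 higher and 155 lower genes of 5285 tested. With the 17 cells alone, 444 of 6513 genes of set 1 were higher (6.82%) and 921 lower (14.1%). In the 3 sets together 77 were then higher and 130 lower of 5278, and 38 of the 48 and 104 of the 155 were among them.

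The 15 genes furthest above fibroblast-rule cells in all sets depended in part on the 28 members of set 1. With the 17 cells in their place, *Ank1*, *Casq2*, *Rasd2*, *Bves* and *Hacd1* were no longer among the 15, and *Dpp6*, *Kcnk3*, *Chchd10*, *Pnck* and *Speg* were. *Ckm*, which encodes the muscle creatine kinase, had 22 UMIs in members of set 1, 64 in set 2 and 59 in set 3, against 4, 2 and 0 in fibroblast-rule cells. In set 3 it was at least 4.40 log2 units higher, set against a floor of 3 UMIs. The junctophilin gene *Jph2*, which ties the cell membrane to the sarcoplasmic reticulum, was at 51.4 and 55.5 CPM in members of sets 2 and 3 and at 8.39 and 2.98 CPM in fibroblast-rule cells. *Casq2*, the calcium store protein calsequestrin, was found in 51 members of set 2 and 47 of set 3, while all 18 of its UMIs in set 1 came from 1 cell that was not among the 17. *Ank1*, an ankyrin gene, had 65 UMIs in the 28 members of set 1 and 0 in the 17. *Car3*, a carbonic anhydrase, and *Bves*, a membrane protein of muscle, were higher in each set too.

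The small heat shock protein gene *Hspb6* was at 117, 192 and 133 CPM in members of sets 1, 2 and 3 and at 26.1, 19.5 and 8.67 CPM in fibroblast-rule cells. Its log2 ratio was 2.16 (1.77 to 2.54), 3.30 (2.88 to 3.74) and 3.94 (3.42 to 4.51). The 17 cells of set 1 had 224 CPM. *Tinagl1*, a matrix protein gene, had a log2 ratio of 2.87 in set 2 and 3.85 in set 3. It was not particular to members: epithelium-rule cells had 142 CPM in set 1 and 357 CPM in set 2, against 26.4 and 338 CPM in members. *Dmd*, which encodes dystrophin, the link from the actin cytoskeleton to the basement membrane, was at 74.9 CPM in set 2 and 124 CPM in set 3, against 15.3 and 14.9 CPM. *Nexn* and *Dmpk*, an actin-binding protein and a muscle kinase, lay between 1.95 and 2.78 log2 units higher in every set. *Pcp4l1* had 3.87 and 4.02 in sets 2 and 3, and *Rasd2*, *Neurl2* and *Hacd1* complete the 15 genes.

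The 10 genes furthest below included matrix, chemokine and enzyme genes. *Dpt*, the matrix protein dermatopontin, had 0 UMIs in members of set 1, 6 in set 2 and 24 in set 3, against 179, 106 and 792 in fibroblast-rule cells. *Cxcl1*, a chemokine, had log2 ratios of -4.47, -2.76 and -3.98. *Aldh1a3*, an enzyme of retinoic acid synthesis, was at 6.95, 23.2 and 7.27 CPM in members and 49.3, 164 and 42.5 CPM in fibroblast-rule cells. *Nppc*, the C-type natriuretic peptide, was at 41.2 and 34.9 CPM in sets 2 and 3 against 224 and 342 CPM. *Fbln2*, *Spon2*, *Svep1*, *Angptl1*, *Sult1e1* and *Glt8d2* were the others. *Glt8d2* and *Angptl1* rested on 1 to 3 UMIs in members.

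**Figure D3:**
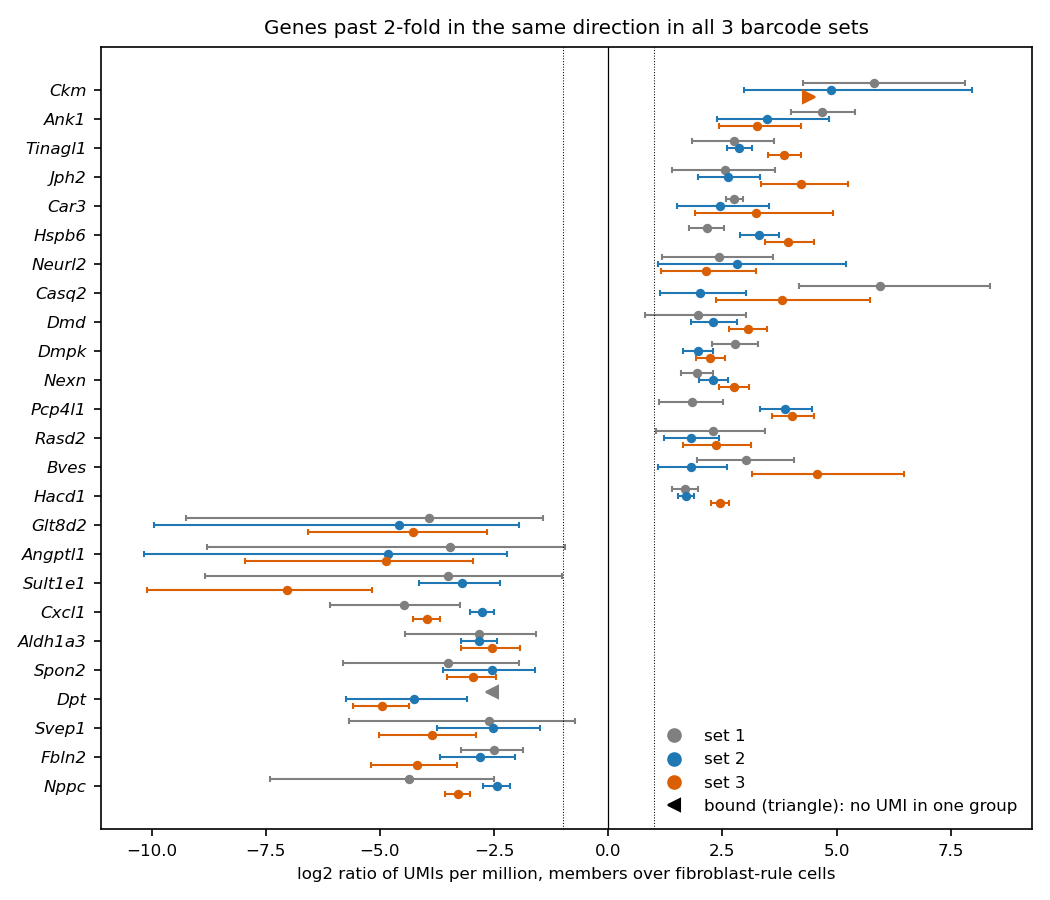
Log2 ratio of CPM, members over fibroblast-rule cells, for the 15 highest and 10 lowest genes past 2-fold in the same direction in all 3 sets, with 95% intervals for counting error; triangles are bounds where 1 group had no UMI. *Ckm* of set 3 (at least 4.40) and *Dpt* of set 1 are bounds, and intervals are wide where few UMIs were counted.

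Genes of the contractile apparatus and cytoskeleton were higher as a group in sets 2 and 3. Of 17 genes with a row outside the rule, 16 were tested, and 12 were higher and 1 lower in set 2, 14 higher and 1 lower in set 3, and 7 higher and 0 lower in set 1. The median log2 ratio was 1.85 in set 2 and 2.496 in set 3, against -0.12 and -0.10 over all genes tested (8.99% and 11.3% of which were higher), and 0.84 against -0.16 in set 1, where 5.35% were higher. With the 17 cells 10 genes were higher, where 6.82% of all genes were, and the median was 1.63 against -0.02. *Myl6*, the essential myosin light chain, was at 1618, 4729 and 7336 CPM in members and at 729.7, 1397 and 1128 CPM in fibroblast-rule cells. *Cald1*, which encodes the actin-binding regulator caldesmon, was 1.25, 1.63 and 2.09 log2 units higher. *Csrp1*, a cytoskeletal LIM protein gene, reached 1503 and 2049.6 CPM in sets 2 and 3 against 392 and 251 CPM. *Dstn*, the actin-severing protein destrin, was 1.37, 1.77 and 2.61 log2 units higher and *Fhl1* 1.22, 2.87 and 2.80. With the 17 cells of set 1 *Fhl1* had 20 UMIs and 0.72, short of 2-fold. *Flna*, an actin crosslinker, and *Synpo2*, an actin-binding protein of the Z-disc, were 1.40 and 2.25 log2 units higher in set 2 and 2.38 and 3.04 in set 3. The one lower gene was *Vim*, the intermediate filament of mesenchymal cells, at 1116 CPM against 3190.2 CPM in set 2 and 531 against 2306 CPM in set 3. In set 1 *Vim* was at 3943 CPM in members and 3205 CPM in fibroblast-rule cells.

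Troponins of striated muscle were found in members of sets 2 and 3, where each myogenic factor had 0 or 1 UMI. Of 18 striated muscle genes with a row, 6 were tested in set 2 and 5 were higher, where 8.99% of all genes were, and 4 were tested in set 3 and 3 were higher, where 11.3% were. *Tnnt1*, the slow skeletal troponin T, was at 354 CPM (332 to 376) in members of set 2 and 484 CPM (461 to 508) in set 3, against 142 and 65.0 CPM in fibroblast-rule cells and 27.8 and 9.31 CPM in epithelium-rule cells. It was found in 591 and 904 members. *Tnnc2*, the fast skeletal troponin C, had 558 UMIs in 296 members of set 2 and 752 UMIs in 254 members of set 3, and was 3.52 (3.08 to 3.99) and 5.66 (4.95 to 6.47) log2 units above fibroblast-rule cells. *Actc1* had 101 UMIs in 39 members of set 2, 6 UMIs in 2 members of set 3, and 2 and 0 UMIs in fibroblast-rule cells. In set 1, 15 of 16 tested genes of this list were higher, where 5.35% of all genes were, and with the 17 cells 2 of 8 were, *Ckm* and *Actc1*, where 6.82% were. *Tnnt1* then had 10 UMIs in 7 cells.

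Calcium handling and caveolae differed for part of their list. Of 13 genes with a row, 12 were tested in set 2 and 13 in set 3, and 6 were higher in each, where 8.99% and 11.3% of all genes were. In set 1, 4 of 13 were higher and 3 lower, where 5.35% and 18.4% of all genes were, and with the 17 cells 4 of 12 and 0, where 6.82% and 14.1% were. *Cav1*, the scaffold of caveolae, was at 747 CPM in set 2 and 481 CPM in set 3 against 258 and 108 CPM. *Cacna1c*, the pore of the L-type calcium channel, had log2 ratios of 1.45 (0.76 to 2.18) and 1.64 (0.94 to 2.40). *Atp2b4*, a calcium pump of the cell membrane, was 1.07 and 1.40 log2 units higher. *Atp2a2*, the calcium pump of the sarcoplasmic reticulum, was at 467 and 418 CPM against 325 and 233 CPM, short of 2-fold. *Kcnab1*, a potassium channel subunit, was 1.67 and 2.30 log2 units higher in sets 2 and 3. *Gja1*, a gap junction protein, was lower in set 3, at 31.4 against 70.7 CPM.

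Receptors of contraction were thinly covered. Of 9 genes with a row, 3 were tested in set 2 and 4 in sets 1 and 3. *Rgs2*, which restrains signals of Gq-coupled receptors, was at 207 CPM in members of set 2 and 403 CPM in set 3, against 56.1 and 117 CPM. The prostaglandin receptor gene *Ptger3* was at 29.9 and 17.4 CPM against 10.3 and 8.13 CPM. *Chrm2*, a muscarinic receptor, had 21 UMIs in members of set 3 and 5 in fibroblast-rule cells. In set 1 *Rgs2*, *Ptger3* and *Ednra* were lower in the 28 members, and in the 17 cells *Ptger3* and *Ednra* were, with 2 and 1 UMIs.

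Of 16 transcription factors and regulators of cell identity tested in set 2, 2 were higher and 0 lower, where 8.99% and 8.85% of all genes tested were. In set 3, 1 of 16 was higher and 2 lower, where 11.3% and 15% of all genes were. In set 1, 6 of 17 were lower, and 5 with the 17 cells, where 18.4% and 14.1% of all genes were. *Hand2*, a factor of mesenchyme and muscle development, was higher in both, at 17.2 against 4.96 CPM in set 2 and 26.7 against 10.8 CPM in set 3. *Esr1*, an estrogen receptor, was lower in set 3, with 14 UMIs in members and 78 in fibroblast-rule cells.

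Of 25 signalling genes tested in set 2, 1 was higher and 5 lower, where 8.99% and 8.85% of all genes were, and the median was -0.61 against -0.12 over all genes. In set 3, 2 of 26 were higher and 15 lower, where 11.3% and 15% of all genes were, with medians of -1.14 and -0.10. In set 1, 2 of 28 were higher and 14 lower, where 5.35% and 18.4% of all genes were, and 4 and 16 with the 17 cells, where 6.82% and 14.1% were. *Igf1*, a growth factor of the stroma, was at 38.9, 37.6 and 64.0 CPM in members and at 290.2, 174 and 496 CPM in fibroblast-rule cells. The ratio on the log2 scale was -2.90 in set 1 (interval -3.49 to -2.36), -2.21 in set 2 (interval -2.53 to -1.90) and -2.96 in set 3 (interval -3.16 to -2.75). *Wnt4*, a Wnt ligand, had log2 ratios of -2.10, -1.27 and -1.61. *Igfbp7*, which binds insulin-like growth factors, was at 996 against 1519 CPM in set 2 and 1157 against 2564.5 CPM in set 3. *Rspo3*, which strengthens Wnt signals, was at 185 CPM in members and 180.5 CPM in fibroblast-rule cells of set 2, and at 208 and 140.1 CPM in set 3. *Fgf7*, a growth factor for epithelium, was the gene higher in set 2, at 158 CPM (143 to 173) against 37.0 CPM, and was at 118 against 64.7 CPM in set 3.

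Fibroblast genes outside the rule were lower, 10 of 15 in set 2, 12 of 15 in set 3 and 13 of 15 in set 1, or 10 of 15 with its 17 cells. Of all genes tested, 8.85%, 15% and 18.4% were lower in sets 2, 3 and 1, and 14.1% with the 17 cells. *Gsn*, the actin-severing protein gelsolin, *Col5a2*, a collagen chain, and *Mfap5*, a microfibril protein, had log2 ratios of -1.44, -1.89 and -0.99 in set 2 and -3.56, -2.42 and -1.58 in set 3. In set 2 *Mfap5* was thus short of 2-fold. *Sfrp2*, a secreted Wnt antagonist, was the exception in set 2, at 254 CPM in members and 78.2 CPM in fibroblast-rule cells. Of 16 basement membrane and adhesion genes, 3 were higher and 1 lower in set 2, where 8.99% and 8.85% of all genes were. In set 1, 1 of 14 was higher and 4 lower, where 5.35% and 18.4% were, and 2 and 2 with the 17 cells. The higher ones in set 3 were *Lama5*, *Npnt*, *Itga8* and *Dmd*, and 6 of 16 were lower, among them *Col4a5* (105 against 322 CPM), where 11.3% and 15% of all genes were higher and lower. Of the mitosis genes 0 were called in either direction, of 9 tested in set 2, 8 in set 3 and 10 in set 1. With the 17 cells of set 1, 4 of 10 were higher (*Mki67*, *Ube2c*, *Aurka* and *Ccna2*) and the median log2 ratio was 0.94, where 6.82% of all genes were higher and their median was -0.02, with UMIs of *Mki67* in 5 of these cells and of the others in 4 each.

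**Figure D4:**
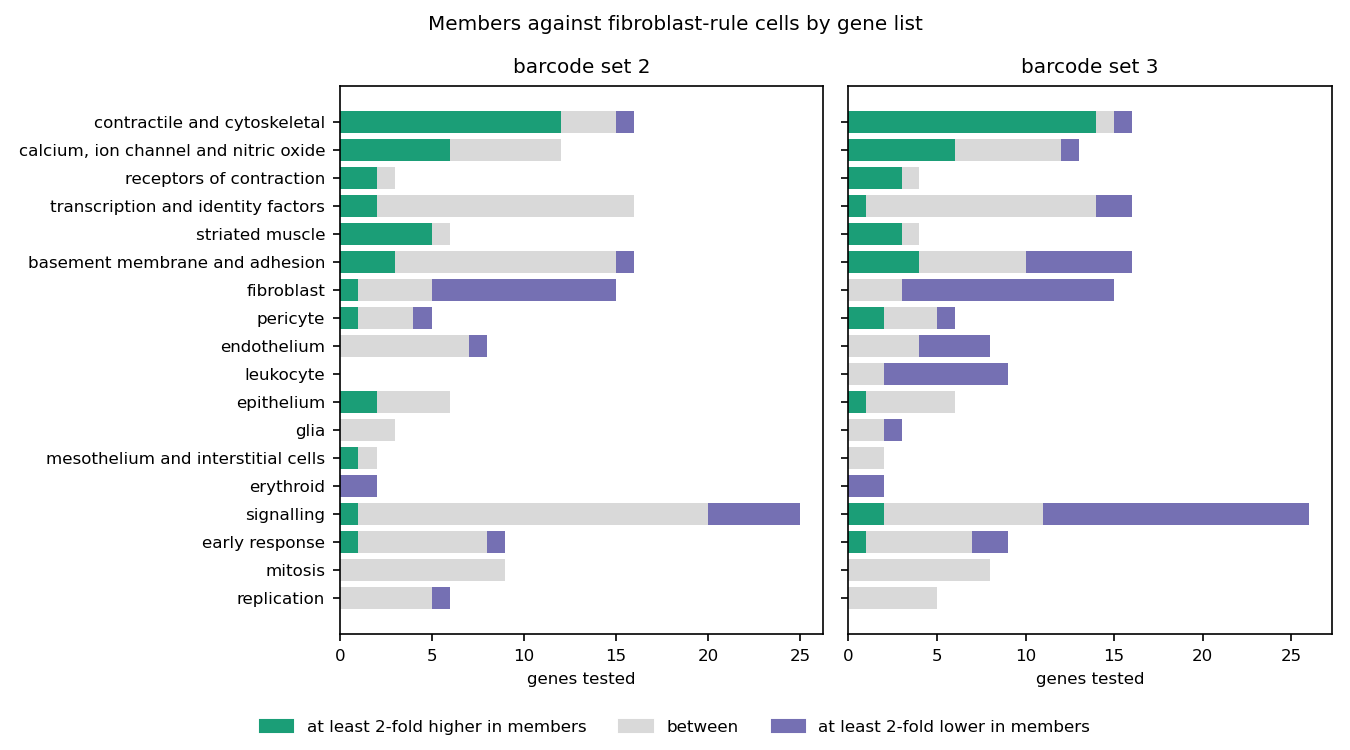
Number of tested genes of each list that were at least 2-fold higher (green), at least 2-fold lower (purple) or between (grey) in members against fibroblast-rule cells, for barcode sets 2 and 3. The contractile list has 12 and 14 higher genes of 16, and the fibroblast list 10 and 12 lower genes of 15.

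Pericytes, the contractile cells of small vessels, share many genes with smooth muscle. Pericyte-rule cells had *Rgs5* and at least 1 further pericyte gene, and lacked *Cdh1*, *Cldn4* and 3 endothelial genes. There were 24 in set 1, 14 in set 2 and 63 in set 3, and sets with at least 20 were compared. The 24 of set 1 had *Col1a2* at 5713 CPM, *Col3a1* at 6498 CPM and *Lum* at 658 CPM. Fibroblast-rule cells of set 1 had less of each, at 3346, 4455.5 and 548 CPM, and more *Dcn* and *Pdgfra*. At least 2 endothelial genes were found in 11 of the 24 and in 1 of the 63 of set 3. Whether pericyte-rule cells hold other cell types was not tested. In set 1, 362 of 4071 genes were higher in members (8.89%) and 588 lower (14.4%), and in set 3, 403 of 4789 were higher (8.42%) and 805 lower (16.8%). The interval left out 0 for 313 and 533 genes of set 1 and for 103 and 390 genes of set 3. *Tnnt1* was furthest above, at 466 CPM in members and 4.08 CPM in pericyte-rule cells of set 1 and at 484 and 10.4 CPM in set 3. It rested on 3 and 1 UMIs in pericyte-rule cells, and its log2 ratio in set 3 was 5.54 (interval 3.06 to 10.8). By the set closest to 0, *Aqp1*, *Npnt*, *Mgst1*, *Flnc*, *Mgll*, *Ctnnal1* and *Hspb6* came next, and the interval of *Aqp1*, *Npnt* and *Ctnnal1* reached past 0 in set 3. The filamin gene *Flnc* was at 459.9 CPM in members and 31.2 CPM in pericyte-rule cells of set 3. Below were *Rgs4*, a regulator of G protein signals (5.81 against 166 CPM in set 3), *Cxcl1*, *Bcr*, *Nrarp*, *Fabp4*, *Lhfp*, *Olfml2b* and *Gdf15*. In set 1 *Tnnt1* owed 325 of its UMIs to the 11 cells left out of the 17. Without cells with a myogenic factor, glial genes or globin, 30 of 32 ratios of named genes to pericyte-rule cells stayed past 2-fold. Counts of set 1 in this comparison are for all 28 members. Of the contractile list, 7 genes were higher and 2 lower than in pericyte-rule cells of set 3, the lower ones being *Ppp1r14a* and *Vim*, and in set 1, 3 of 15 were higher and 1 lower. The calcium list had 0 higher and 3 lower genes of 13 in set 3 (*Cacna1c*, *Gucy1a3* and *Gucy1b3*), with a median log2 ratio of -0.30, and 4 higher and 2 lower of 11 in set 1. The 4 higher included *Casq2*, whose UMIs in set 1 all came from 1 cell that was not among the 17. The counts of both lists stand beside 8.42% higher and 16.8% lower of all genes in set 3 and 8.89% and 14.4% in set 1.

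Members of the 3 sets were also set side by side. Their depths differed, and of 52 ratios between sets of named genes past 2-fold, 25 stayed so when members were thinned to 900 UMIs. Of 5732 genes tested between sets 2 and 3, 772 were at least 2-fold higher in set 2 (13.5%) and 279 in set 3 (4.87%). *Hmga2*, a chromatin protein gene of growing tissue, had 194 UMIs in 152 members of set 2 and 1 UMI in set 3, and in fibroblast-rule cells it was at 187 and 3.79 CPM. *Gsta3*, a glutathione transferase gene, was at 15.5 CPM (42 cells) in set 2 and 173 CPM (363 cells) in set 3, and at 4.58 and 40.6 CPM in fibroblast-rule cells. Both genes thus differed between the sets in fibroblast-rule cells too. *Ddah1* and *Bmp8a* were higher in set 2, with 46 and 29 UMIs against 1 each. *Scg2* and *Syn2*, genes of neurons, had 54 UMIs each in set 2, each in 5 cells. *Prr9* and *Ndufa4l2* were higher in set 3, with 38 and 24 UMIs, as were the gene models *Gm26526* and *Gm14305*. In fibroblast-rule cells of sets 2 and 3, *Ddah1* was at 16.8 and 2.98 CPM, *Prr9* at 1.91 and 18.7 CPM, *Ndufa4l2* at 2.29 and 10.8 CPM and *Scg2* at 11.1 and 0.271 CPM, in the same order as in members, while *Bmp8a* was at 3.43 and 2.71 CPM.

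Against set 1, 926 of 5180 genes were higher in set 1 than in set 2 (17.9%) and 898 higher in set 2 (17.3%), and 1364 of 5218 were higher in set 1 than in set 3 (26.1%) and 769 higher in set 3 (14.7%). Of the 10 genes furthest above in set 1, *Myod1*, *Myog*, *Neb*, *Ttn*, *Prrg4*, *Msc* and *Mylpf* had 0 UMIs in the 17 cells. *Hbb-bs* and *Hbb-bt* owed 7578 and 1328 UMIs to 1 cell. *EGFP*, a reporter sequence in the table, had 644 UMIs in 10 members of set 1, 200 of them in 5 of the 17, and 0 in sets 2 and 3. In fibroblast-rule cells *EGFP* was at 1266 CPM in set 1 and at 0 in both other sets. The genes furthest below in set 1 were *Nupr1*, a stress response gene (2.78, 167 and 193 CPM), *Chrdl1*, a BMP antagonist (1.39, 83.0 and 120 CPM), *Serping1*, the C1 inhibitor (2.78, 104 and 154 CPM), *Rgs10*, *Prkcb*, *Plekhb2*, *Nr4a3*, *Car14*, *Emcn* and *Perp*. *Chrdl1*, *Rgs10*, *Prkcb*, *Plekhb2*, *Car14*, *Emcn* and *Perp* had 1 UMI each in members of set 1, *Nupr1* and *Serping1* 2 each and *Nr4a3* 4. In members thinned to 900 UMIs *Plekhb2* turned, with log2 ratios of set 1 of 0.13 over set 2 and 0.62 over set 3. *Nupr1* and *Serping1* were also low in fibroblast-rule cells of set 1, at 19.5 and 79.2 CPM, against 335 and 357 CPM in set 2.

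Members of sets 2 and 3 varied among themselves beyond counting. The excess variance, the variance of UMIs over that expected from counting at each cell's depth as a share of the squared mean, was ranked within each set over genes found in at least 5% of its members, 2464 in set 2 and 2150 in set 3, of which 2022 were ranked in both. *Cxcl10*, an interferon-induced chemokine, ranked highest by mean rank over both sets, at rank 9 in set 2 and 1 in set 3, with 10.9 in set 2 and 17.5 in set 3, and was found in 14.1 and 9.19% of members with up to 22 UMIs in a cell in both sets. *Fabp5*, *Tnfaip6*, *Stmn1*, *Tm4sf1*, *Fgl2*, *Plagl1*, *H1fx*, *Aqp1* and *Ctgf* followed. *Ctgf*, a matrix protein gene, was found in 27.4% of members of set 2 and 5.67% of set 3.

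The *Tnnt2* gene, although it helped to choose the members, left 856 of them in set 2 and 1051 in set 3 without a UMI. Median totals of members with and without it were 1549 and 1599 UMIs in set 2 and 1732 and 1601 in set 3. Outside the rule, 2617 genes had at least 60 UMIs in each set. Of these, 9 were at least 2-fold higher in members with *Tnnt2* in set 2 (0.344%) and 7 lower (0.267%), and 10 (0.382%) and 24 (0.917%) in set 3. The water channel gene *Aqp1* was at 57.4 CPM in members with *Tnnt2* and 25.2 CPM in those without in set 2, and at 68.0 and 27.5 CPM in set 3. *Wt1*, a transcription factor of urogenital development, had a log2 ratio of 0.81 in set 2 (interval 0.17 to 1.47) and of 1.47 in set 3 (interval 0.95 to 2.01). *Hspb7*, a small heat shock protein gene of muscle, had 0.81 and 0.99, short of 2-fold. On the other side, *Bmp2* was at 65.4 against 152 CPM in set 2 and 33.7 against 64.9 CPM in set 3. *Plcb1*, a phospholipase downstream of Gq, had log2 ratios of -1.05 (-1.48 to -0.63) and -1.75 (-2.36 to -1.19). *Fmo2*, a monooxygenase gene, had -0.83 and -1.34, and *Dclk1*, a kinase gene, -0.94 and -0.96. The division by *Tnnt2* and these genes were chosen after values were seen. A member without *Tnnt2* had to pass the rule with at least 3 of the other 5 muscle genes, and a member with it needed fewer of them. What part of the differences comes from this was not tested. Cells of a set come from 1 library, so the intervals do not cover variation between animals.

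The members were divided in the same way by *Fgf7*, which the rule did not use. Of 2616 genes, 4 were at least 2-fold higher in members with an *Fgf7* UMI in set 2 (0.153%) and 11 lower (0.42%), and 2 (0.0765%) and 34 (1.3%) in set 3. *Aqp1* and *Wt1* had log2 ratios of 1.41 and 1.01 in set 2 and of 0.63 and 0.66 in set 3. *Cldn11*, a tight junction gene, was at 10.0 CPM in the 338 members of set 2 with *Fgf7* and 44.8 CPM in the 1160 without, and at 6.22 CPM in 310 and 22.5 CPM in 1508 members of set 3, with log2 ratios of -2.16 and -1.86. It had 7 and 4 UMIs in the members with *Fgf7*. *Fmo2* had log2 ratios of -1.53 and -1.06. By *Tnnt1*, 3 genes were higher (0.115%) and 4 lower (0.153%) in members with a UMI in set 2, and 7 (0.268%) and 4 (0.153%) in set 3. *Cldn11* then had log2 ratios of 0.97 and 1.35, and *Fmo2* 0.70 and 0.64. Members with a UMI of either gene were deeper, with medians of 1659.5 against 1559 UMIs for *Fgf7* and 1726 against 1499 for *Tnnt1* in set 2, and 1765 against 1637 and 1708.5 against 1609.5 in set 3.

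**Figure D5:**
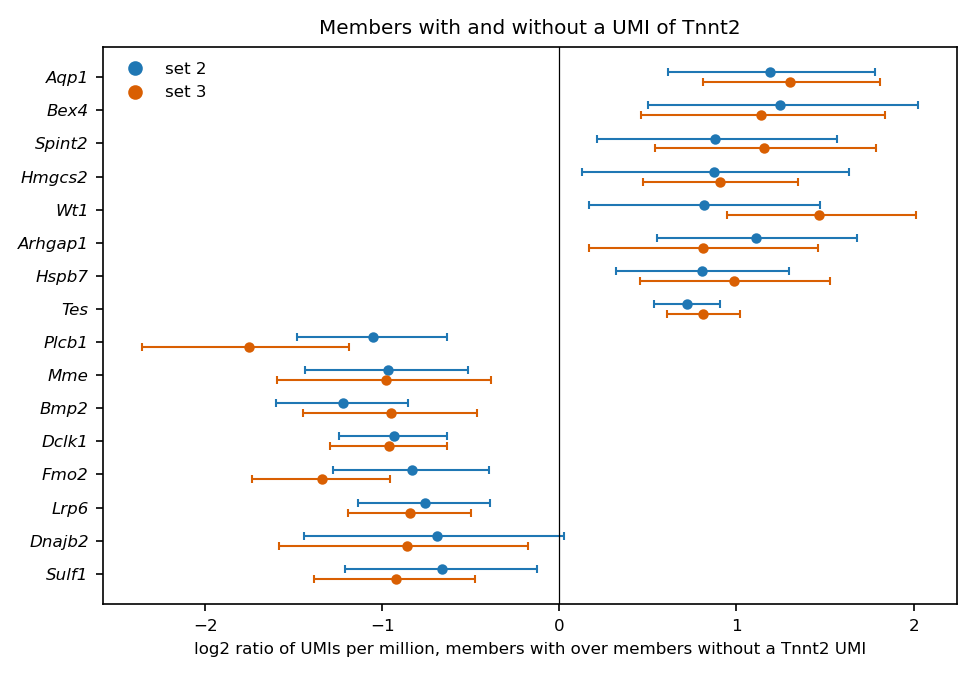
Log2 ratio of CPM, members with over members without a *Tnnt2* UMI, for 8 genes of the highest and 8 of the lowest ratio in sets 2 and 3, with 95% intervals for counting error. *Aqp1* and *Wt1* lie to the right and *Bmp2*, *Plcb1* and *Fmo2* to the left in both sets; genes were chosen by these values.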

How the data were processed

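The 3 mouse tissues were profiled as dissociated cells in droplets, 1 library per tissue. The labels name v3 of the 3' reagent kit and the study's methods name v2. Per the methods and the submitters' processing notes, UMIs were counted with Cell Ranger 3.1.0 on mm10 with added transgene sequences, and the authors filtered out multiplets, empty droplets and cells with much mitochondrial RNA; no treatment of free RNA is stated. Deposited values are natural log values: each UMI count was divided by its cell's total, multiplied by 10000 and increased by 1 before the logarithm, although the table is named as counts. Whole UMIs were recovered from the steps within each cell: 100% of 11120281 values above 0 were whole within 0.05. The table was held only in part: of 9784 rows, 1 partly filled row and 2 of a repeated name were left out, and genes of further chromosomes were not analysed here. *Acta2*, *Myh11*, *Tagln* and *Cnn1* are among the genes with no row.

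Cells with under 200 genes (97, all in set 3) were left out, and doublets were not called again. The columns were treated as pooled. Rates were summed over cells, scaled to 1000000 UMIs and given exact 95% Poisson intervals; shares had Clopper-Pearson intervals, and a log2 ratio took its interval from the binomial distribution of 1 class's UMIs among those of both. A group at 0 UMIs was set to 3 in a ratio, which gives a bound. Total UMIs were 719500, 2842252 and 3440124 in members of sets 1, 2 and 3. Thinning to 900 UMIs was without replacement. RefSeq names (GRCm38.p6, the assembly of mm10) were found for 9271 of 9781 rows. The members and gene lists were chosen with earlier results of these data known. Named genes are the 15 highest and 10 lowest against fibroblast-rule cells at the set closest to 0, the 8 highest and lowest against pericyte-rule cells, the 10 and 5 furthest between sets, the 10 of highest mean rank of excess variance, and up to 6 per gene list with the most UMIs, with further list members named where a count turned on them. Genes in the divisions by *Tnnt2*, *Fgf7* and *Tnnt1* fall outside that rule and were picked by their values. Python 3.11.15, numpy 2.4.6, scipy 1.17.1 and matplotlib 3.10.9 were used. Values of some genes of the lists are not reported here.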

Additional observations from a re-analysis of the deposited data

Results flagged for a closer look

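Listed genes that were at least 2-fold higher than fibroblast-rule cells in members of one barcode set and at least 2-fold lower in another, each with an interval that left out 0, are given here as log2 ratios. The difference between sets was not tested, since each set is 1 library. These genes of contraction were lower in set 1 and higher in sets 2 and 3: *Atp2b4* (-1.38, 1.07 and 1.40 in sets 1, 2 and 3), the potassium channel subunit gene *Kcnab1* (-2.87, 1.67 and 2.30, with 1 UMI in members of set 1 and an interval there of -8.19 to -0.34), *Ptger3* (-2.77, 1.54 and 1.10, with 2 UMIs and -5.83 to -0.89) and *Rgs2* (-1.91, 1.88 and 1.78). The early response gene *Atf3* had -1.22, 1.69 and 1.30. In set 1 against set 2, *Hoxa10* had -1.51 and 1.00 and *Sfrp2* -1.76 and 1.70. In set 1 against set 3, *Rgs4* had -4.95 and 4.42, with 1 UMI in members of set 1 and 1 in fibroblast-rule cells of set 3 and intervals of -10.3 to -2.46 and 1.78 to 9.80, and *Igfbp2* -2.17 and 1.31. The opposite order held for the globins *Hbb-bs* (4.82, -1.97 and -4.78) and *Hbb-bt* (5.81 and -2.97 in sets 1 and 2), the glial gene *Fabp7* (2.12 in set 1 and -2.76 in set 3), *Lgr5* (1.54 in set 1 and -1.33 in set 3) and the replication gene *Mcm3* (1.43 in set 1 and -1.61 in set 2). In the 17 members of set 1 that carried no myogenic factor, glial or globin excess, *Rgs2* was at -0.84, *Atp2b4* at -0.87, *Hoxa10* at -0.78 and *Sfrp2* at -0.75, short of 2-fold, and *Mcm3* was at 0.04. *Atf3*, with 98 UMIs, was just past 2-fold lower, *Igfbp2* was at -1.80 and *Ptger3*, with 2 UMIs, at -1.52 (interval -4.58 to 0.36). *Hbb-bs*, *Hbb-bt* and *Lgr5* were no longer higher, at -1.31, -0.17 and -1.26, the last with 2 UMIs, and *Kcnab1*, *Rgs4* and *Fabp7* had 0 UMIs.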

How the results depend on the processing

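No paired analysis was possible because there was only 1 library for each tissue, and no replicate could be left out. The share of members (3.66, 28.0 and 21.7% in sets 1, 2 and 3) depended on the rule. It was 2.35, 25.9 and 18.2% with at least 4 muscle genes, 1.17, 17.9 and 15.2% with a muscle mean at least 2 times the stromal mean, 0.131, 2.24 and 2.5% with no stromal gene above 0, 6.01, 35.7 and 24.98% with no exclusion genes, and 2.09, 24.97 and 19.3% without cells with a UMI of another cell type's gene. In sets 2 and 3 it was 22.7 and 15.98% at 500 genes a cell, 29.4 and 22.9% without the cells of most UMIs, and 30.8 and 22.8% in thinned cells; it was 29.5% in set 2 without *Tnnt2* in the rule and 22.9% in set 3 with 2 muscle genes. Without the 11 cells with a myogenic factor, glial genes or globin, chosen after seeing the data, set 1 had 2.22%.

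Genes higher and lower than fibroblast-rule cells in set 1 (352 and 1210) became 126 and 698 at 100 UMIs and 89 and 200 in thinned cells; higher genes became 618 at 5 UMIs, 553 with 2 muscle genes and 541 with no exclusion genes, and lower genes 5 with no stromal gene, which left 1 cell. In set 2 (509 and 501) they were 220 and 211 at 100 UMIs, 846 and 819 at 5 UMIs and 770 and 1008 against all other cells, and 808 were lower with no stromal gene. In set 3 (660 and 876) they were 349 and 440 at 100 UMIs, and 1826 were lower against all other cells. Fewer genes are tested at a higher minimum. Between members of the sets, thinning left 223 genes higher in set 2 and 186 in set 3 than in set 1, where fewer genes reached 20 UMIs; the other counts stayed within 1.5 times. Reversed were *Dmd* in set 1 without cells with another type's UMI (-0.33), *Fbln2* in set 1 with no exclusion genes (0.56), *Tinagl1* in set 1 against all other cells (-1.70) and *Plekhb2*, with 1 UMI in set 1, in thinned members of set 1 against sets 2 and 3 (0.13 and 0.62); the cause was not tested. Of 75 ratios of the named genes to fibroblast-rule cells, all stayed past 2-fold at 500 genes a cell and as means over cells, 55 of 63 did so in thinned cells and 46 of 73 with no stromal gene. Of 66 ratios of named genes between sets, 44 left their interval in thinned members without turning, and 25 of the 52 past 2-fold stayed so.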
